A study of Homo sapiens with 9 samples.

Results

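The genes described here are 10 genes of inflammatory chemokines and cytokines, CXCL1, CXCL2, CXCL3, CXCL5, CXCL8, CCL20, IL1A, IL1B, IL6 and LIF, chosen by their gene symbols from the 42717 genes of the deposited count table, where all 10 were found. CXC chemokines of this family carry a Glu-Leu-Arg motif before the first cysteines and attract neutrophils through the receptors CXCR1 and CXCR2. CCL20 attracts CCR6-bearing lymphocytes and dendritic cells. IL-1 alpha and IL-1 beta act through IL1R1 and its partner IL1RAP and switch on NF-kB, which together with AP-1 drives transcription of the chemokine genes and of IL6. IL-6 and LIF share the signalling receptor gp130 (gene IL6ST) and act through JAK kinases and STAT3. In pancreatic ductal adenocarcinoma (PDAC) such factors are known as signals from tumor cells to neutrophils and fibroblasts.

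mRNA was sequenced from the lines S2-007, S2-028 and S2-020, sublines of the human PDAC cell line SUIT-2, with 3 libraries per line and 9 in all. All were grown in DMEM with fetal bovine serum, with no treatment. Maspin, the serpin that the study is about, lies in the nucleus and the cytoplasm in S2-007 (panMaspin) and mainly in the cytoplasm in S2-028 (cytMaspin), and is only weakly detected in S2-020. Each group is 1 cell line, so a difference between lines cannot be told apart from any other difference between these sublines, maspin included. The labels do not say whether the libraries of a line came from separate cultures, so the p-values measure the spread between these libraries, which may be technical.

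The total count was between 60328748 and 86253923 per library. The summed level of 5 epithelial markers was 9318 to 9813 CPM (counts scaled to library size, with TMM factors) in S2-007, 4266 to 5382 in S2-020 and 14374 to 16868 in S2-028. Keratin 19 (KRT19) averaged 2123, 103 and 1933 CPM and E-cadherin (CDH1) 54.2, 4.54 and 112 CPM in S2-007, in S2-020 and in S2-028, so S2-020 was the lowest in both, and the part of this in the values below was not tested. The summed levels of 6 fibroblast markers (2.43 to 5.75 CPM over all libraries) and of 4 endothelial markers (5.49 to 10.0 CPM) were low. The 8 leukocyte markers summed to 296 to 371 CPM in S2-007, of which lysozyme (LYZ) was 332 CPM on average, and to 4.39 to 7.98 CPM in the other lines. The pan-leukocyte gene PTPRC averaged 0.301, 0.186 and 0.293 CPM and the T cell gene CD3E 0, 0.181 and 0.332 CPM in S2-007, in S2-020 and in S2-028. Several chemokine genes were at levels of this size, and the part of other cells or of stray reads in them was not tested. In bulk RNA, fewer cells that express a gene and less RNA per cell cannot be told apart.

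The 5 CXCL genes lie together on chromosome 4 (GRCh38.p14). CXCL8 (73740569 to 73743716), CXCL1 (73869393 to 73871308), CXCL5 (73995642 to 73998677), CXCL3 (74036589 to 74038689) and CXCL2 (74097040 to 74099195) span 359 kb, with CXCL8 and CXCL1 on the forward strand and the others on the reverse strand. IL1A (112773925 to 112784493) and IL1B (112829751 to 112836779) are neighbors on the reverse strand of chromosome 2, and CCL20 (227813842 to 227817556) lies on the forward strand of the same chromosome. IL6 (22727200 to 22731998) is on the forward strand of chromosome 7 and LIF (30240453 to 30246759) on the reverse strand of chromosome 22.

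The promoters of the genes on which the comparisons turn are shown so that the chemokine genes, which were not all called in the same comparisons, can be compared at their starts. The RefSeq promoter table of GRCh38.p14 (250 bases before to 50 after each start) held 9 of the 10 genes, with 10 promoters, and LIF had none. The 150 bases before the start are given 5′ to 3′ on the gene's own strand. Capitals mark matches to a kB-type motif (GGNNTTTCC, either strand), an AP-1-type motif (TGANTCA, either strand) and a TATA-type motif (TATAAA, the gene's strand only), and the search allowed matches to overlap.
CXCL5: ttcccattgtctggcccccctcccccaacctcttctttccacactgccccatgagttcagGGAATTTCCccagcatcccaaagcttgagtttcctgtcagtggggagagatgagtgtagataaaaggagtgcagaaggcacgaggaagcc
CXCL8: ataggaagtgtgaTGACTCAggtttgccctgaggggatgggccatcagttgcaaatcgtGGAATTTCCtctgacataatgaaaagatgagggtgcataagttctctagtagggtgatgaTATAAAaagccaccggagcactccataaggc
CCL20: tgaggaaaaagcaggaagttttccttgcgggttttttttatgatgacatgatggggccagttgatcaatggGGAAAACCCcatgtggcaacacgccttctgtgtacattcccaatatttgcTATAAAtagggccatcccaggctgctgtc
CXCL1: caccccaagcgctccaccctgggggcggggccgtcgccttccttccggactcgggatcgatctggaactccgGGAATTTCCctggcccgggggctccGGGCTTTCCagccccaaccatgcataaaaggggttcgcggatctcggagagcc
CXCL2: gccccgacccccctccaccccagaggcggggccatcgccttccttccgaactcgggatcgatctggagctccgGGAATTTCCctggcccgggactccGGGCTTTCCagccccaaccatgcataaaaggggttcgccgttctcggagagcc
CXCL3: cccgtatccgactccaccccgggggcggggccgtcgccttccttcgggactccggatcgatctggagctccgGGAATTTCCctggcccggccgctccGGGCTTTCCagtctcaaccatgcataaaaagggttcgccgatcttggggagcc
IL6: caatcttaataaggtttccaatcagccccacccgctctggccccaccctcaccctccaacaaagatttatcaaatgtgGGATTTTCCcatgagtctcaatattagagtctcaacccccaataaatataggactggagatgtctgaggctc
These stretches are chr4:73998678-73998827 for CXCL5, chr4:73740419-73740568 for CXCL8, chr2:227813692-227813841 for CCL20, chr4:73869243-73869392 for CXCL1, chr4:74099196-74099345 for CXCL2, chr4:74038690-74038839 for CXCL3 and chr7:22727050-22727199 for IL6.

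The kB-type motif was found in 7 of the 9 genes matched, all 5 CXCL genes, CCL20 and IL6, and in 6.26% of all 35116 promoters of the table. Its first base lay at -90 in CXCL5, -91 in CXCL8, -79 in CCL20 and -72 in IL6, counted from the start. CXCL1, CXCL2 and CXCL3 each held a pair of them, at -78 and -53, -77 and -53, and -78 and -53, and shared an unbroken run of 23 bases around the upstream one. The AP-1-type motif was found in CXCL8 at -137 and in both promoters of IL1A, and in 7.71% of all promoters. The TATA-type motif was found in CXCL8, CCL20 and the upstream promoter of IL1A, and in 7.33% of all promoters. IL1B held none of them in this window. A match is a description of the letters and not a site.

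Levels of different genes were compared per length, as CPM per kb of the MANE Select transcript. LIF stood far above the other 9 genes, with 13.3 ± 0.841 CPM per kb in S2-007, 11.8 ± 0.250 in S2-020 and 11.5 ± 0.933 in S2-028 (SD, n = 3). In S2-007, CXCL5 (1.72 ± 0.462) and CXCL8 (1.10 ± 0.261) followed, then CCL20 (0.733 ± 0.214), CXCL2 (0.564 ± 0.133), CXCL3 (0.535 ± 0.211), CXCL1 (0.474 ± 0.186) and IL6 (0.465 ± 0.206), and these last 5 were within 1 SD of their neighbors in the order. IL1A (0.0532 ± 0.0611) and IL1B (0.0238 ± 0.0103) were the lowest. In S2-028, CXCL5 (2.31 ± 0.292) was again next to LIF and stood clear of CXCL2 (0.488 ± 0.157), whereas in S2-020 CXCL5 (0.119 ± 0.0264) was below CXCL3 (0.163 ± 0.0444), and no gene but LIF was above 0.207 CPM per kb.

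**Figure D1:**
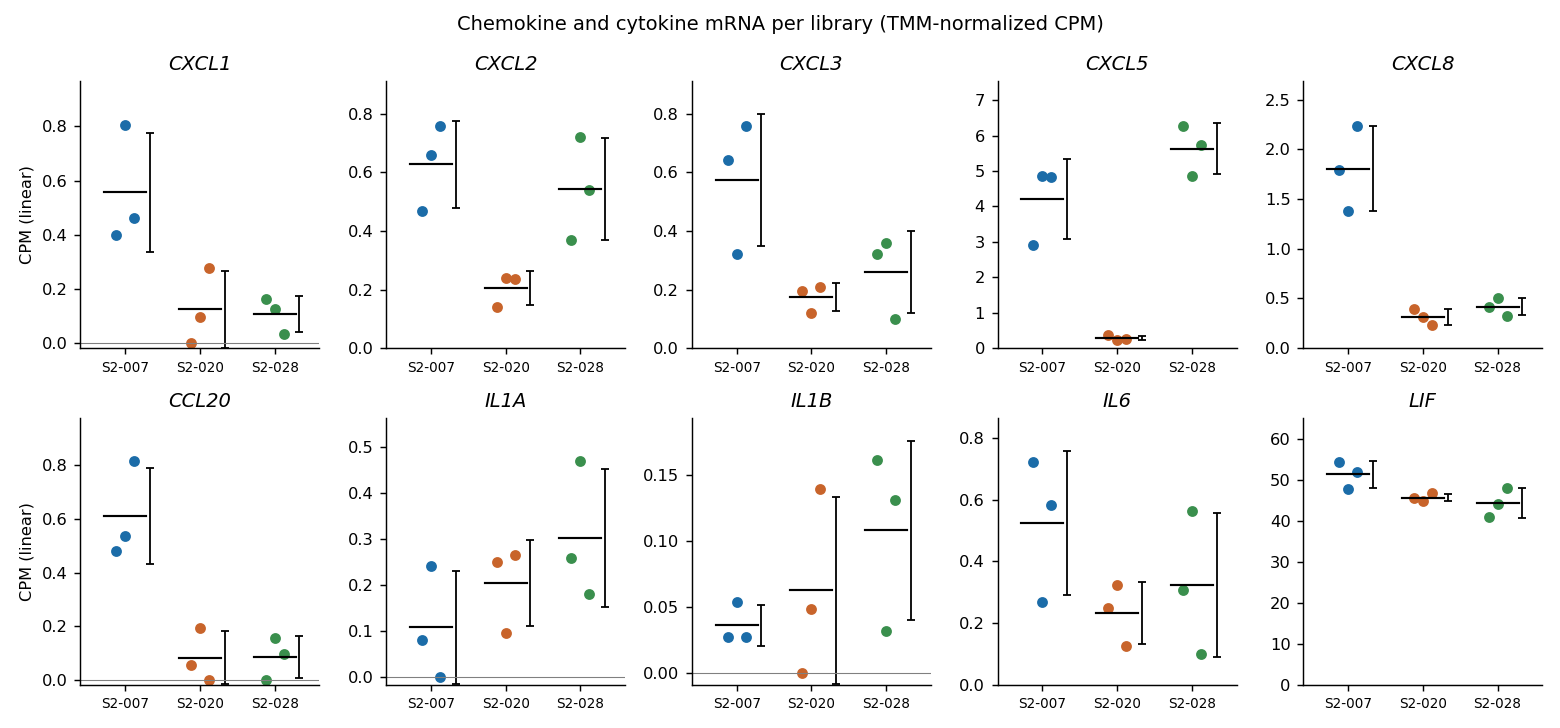
Level of each of the 10 genes in CPM (linear axes, a separate scale for each gene) in the 3 libraries of S2-007, S2-020 and S2-028; points are libraries, the bar is the mean and the bracket is 1 SD on either side. CXCL5 is near 0.289 CPM in S2-020 against 4.20 and 5.63 in S2-007 and S2-028, CXCL8 and CCL20 are highest in S2-007, and LIF is between 41.0 and 54.3 CPM in all libraries.

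Differentially expressed genes (DEGs) were called by the quasi-likelihood test of edgeR where the adjusted p (Benjamini-Hochberg) was under 0.05 and the level differed by 1.5-fold or more. In S2-020 against S2-007, 6 of the 9 members tested were lower and 0 were higher, where 12.1% of all 26657 genes tested were lower and 9.57% were higher. That count was 3 without S2-007 replicate 3 and 3 with a 1.5-fold change as the null. In S2-028 against S2-007, 3 of 9 were lower and 0 were higher, where 8.19% of 26371 genes were lower and 10.2% were higher. In S2-028 against S2-020, 2 of 7 were higher and 0 were lower, where 12.1% of 26031 genes were higher and 10.1% were lower. The count was 1 with a 1.5-fold change as the null and in 5 of the 6 fits that left out 1 library, and it stayed at 2 without S2-028 replicate 1. Comparisons that share a line share its libraries, so they are not independent of each other. The median log2 fold change of the members tested was -1.74, -0.69 and 0.58 in these comparisons, beside -0.05, 0.00 and 0.02 for all genes. IL1B was not tested in any, and CXCL1 and CCL20 were not tested between S2-028 and S2-020, because their counts were too low for the filter. In both comparisons with S2-007, CXCL1, CXCL3, CCL20 and IL6 needed its libraries, where their mean was highest, to pass the filter. CXCL2 needed them in S2-020 against S2-007. For such genes the filter favored a lower call, so the counts and medians against S2-007 are partly set by it. In S2-028 against S2-020, CXCL2 and IL1A needed the S2-028 libraries, where their mean was higher, to pass the filter. For these the filter favored a higher call, and IL1A holds the median of 0.58. The count and median of that comparison are thus also partly set by the filter.

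**Figure D2:**
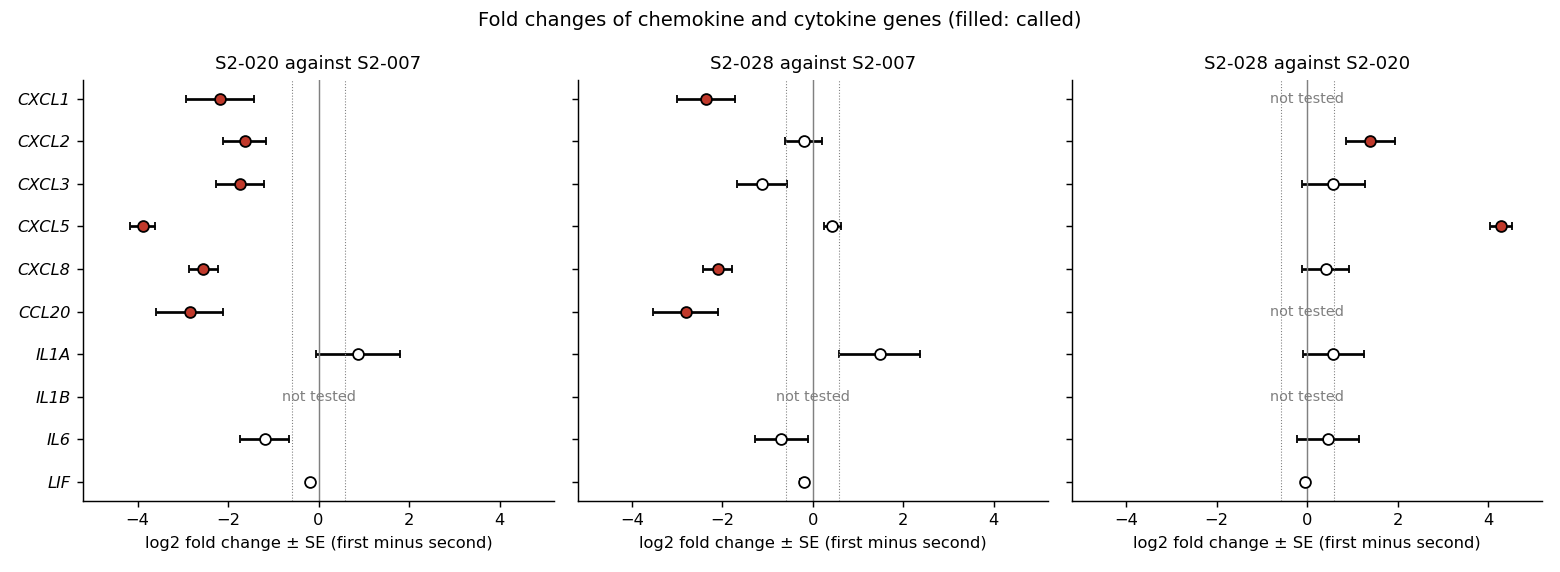
Log2 fold change with its SE (horizontal bars) of each gene in the 3 comparisons; filled points were called, open points were not, and dotted lines mark the 1.5-fold threshold. CXCL8, CCL20 and CXCL1 lie to the left in both comparisons with S2-007, while CXCL5 is at -3.89 in S2-020 and at 0.43 in S2-028 against S2-007.

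CXCL5, an epithelial neutrophil attractant, separated S2-020 from both other lines. Its reads per library were 217, 362 and 356 in S2-007, 26, 20 and 19 in S2-020 and 390, 311 and 350 in S2-028. The corresponding levels were 4.20 ± 1.13, 0.289 ± 0.0642 and 5.63 ± 0.712 CPM (SD, n = 3). All S2-020 libraries were far below those of the other lines. The log2 fold change was -3.89 (SE 0.279, adjusted p = 5.29e-10), a level 14.8-fold lower in S2-020 than in S2-007, and 4.28 (SE 0.242, adjusted p = 2.26e-11), or 19.5-fold higher, in S2-028 than in S2-020. Between S2-028 and S2-007 the levels touched without overlapping, with the lowest S2-028 library at 4.87 CPM and the highest S2-007 library at 4.86 CPM. That difference of 0.43 (SE 0.191) was not called (adjusted p = 0.0960). Of the transcript bases of CXCL5, 17.3% lie under a gene on the opposite strand, and how strand was counted is not stated, so reads of such a partner cannot be told apart. In words of 31 bases, 28.2% of its bases occurred in other genes, mostly ENSG00000287037 and GLYR1. That search covered both strands, so it also counted bases under an opposite-strand gene, which need not occur elsewhere in the genome. Some reads of CXCL5 may have had several matches, but their share is not known. LOC124900715 was named here after its values were seen because it overlaps the start of CXCL5. It averaged 0.233, 0.0700 and 0.360 CPM in S2-007, in S2-020 and in S2-028. Its log2 fold change of 2.30 (adjusted p = 0.0317) in S2-028 against S2-020 was called. Those of -1.71 (adjusted p = 0.132) in S2-020 and 0.62 (adjusted p = 0.508) in S2-028 against S2-007 were not. In both comparisons with S2-020, LOC124900715 passed the filter only with the libraries of the other line. Its call against S2-020 could thus hardly be other than higher, and the size of that fold is not well fixed.

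CXCL8, which encodes interleukin-8, was higher in S2-007 than in both other lines, though its level was modest throughout. Its mean over the 9 libraries was above that of 37.2% of the 28019 genes kept by the filter on all libraries. Its libraries held 134, 103 and 165 reads in S2-007, 28, 26 and 17 in S2-020 and 26, 32 and 20 in S2-028, or 1.80 ± 0.429, 0.313 ± 0.0764 and 0.416 ± 0.0866 CPM. Every S2-007 library was above every other library. CXCL8 was 5.86-fold lower in S2-020 (log2 fold change -2.55, SE 0.319, adjusted p = 1.54e-06) and 4.31-fold lower in S2-028 (-2.11, SE 0.320, adjusted p = 1.69e-05) than in S2-007. The S2-020 and S2-028 libraries overlapped, with a log2 difference of 0.41 (SE 0.516, adjusted p = 0.596). None of the transcript sequence of CXCL8 in words of 31 bases occurred in other genes.

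CCL20, the ligand of CCR6, showed a similar order at lower counts. The reads were 36, 40 and 60 in S2-007, 4, 16 and 0 in S2-020 and 0, 10 and 6 in S2-028. The level of 0.611 ± 0.179 CPM in S2-007 fell to 0.0827 ± 0.0990 in S2-020 and 0.0850 ± 0.0791 in S2-028, and no library of either line reached the lowest S2-007 library. The log2 fold changes against S2-007 were -2.85 (SE 0.736, adjusted p = 0.00367) in S2-020 and -2.81 (SE 0.723, adjusted p = 0.00389) in S2-028. A count of 0 allows up to 3 reads, or up to 3 fragments if both reads of a pair were counted. With 1 library at 0 in each of these lines the size of the fold is thus not well fixed. The log2 fold change ranged from -4.40 to -2.29 in S2-020 and from -3.59 to -2.24 in S2-028 when 1 library was left out.

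CXCL1, CXCL2 and CXCL3 encode the closely related GRO chemokines. Their transcripts share 35.1%, 45.4% and 17.7% of their bases with other genes in words of 31 bases, mostly with each other, so the split of reads between them is uncertain. The summed level of all 3 was 1.51, 1.79 and 1.98 CPM in the S2-007 libraries, 0.334, 0.457 and 0.725 in S2-020 and 0.854, 1.21 and 0.672 in S2-028. S2-007 was above both other lines in every library, and S2-020 and S2-028 overlapped.

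CXCL1 had 30, 60 and 34 reads in S2-007, 0, 8 and 20 in S2-020 and 10, 8 and 2 in S2-028. It was lower in S2-020 (log2 fold change -2.18, SE 0.754, adjusted p = 0.0261) and in S2-028 (-2.36, SE 0.645, adjusted p = 0.00631) than in S2-007. Both calls rest on few reads. The log2 fold change in S2-020 was -3.46 without S2-020 replicate 3 and -1.61 without S2-020 replicate 1, the library at 0. Leaving out S2-007 replicate 2 raised the adjusted p of the S2-028 comparison to 0.0795, and the S2-020 call was lost without S2-007 replicate 2 (adjusted p = 0.151) or 3 (0.0514) and without S2-020 replicate 1 (0.0523) or 2 (0.0845).

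CXCL2 had 35, 49 and 56 reads in S2-007, 10, 20 and 17 in S2-020 and 23, 46 and 33 in S2-028. It was lower in S2-020 than in S2-007 (log2 fold change -1.63, SE 0.477, adjusted p = 0.00912, or 0.0526 without S2-007 replicate 3), while S2-028 overlapped S2-007 (-0.20, SE 0.414, adjusted p = 0.783). Between S2-028 and S2-020, where CXCL1 was not tested, CXCL2 was called (1.40, SE 0.537, adjusted p = 0.0453). Of the 6 fits that left out 1 library, the call held in the 1 without S2-028 replicate 1, with adjusted p of 0.0719 to 0.189 in the others. CXCL2 passed the filter there only through S2-028, which favored a higher call.

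CXCL3 had 48, 24 and 56 reads in S2-007, 14, 10 and 15 in S2-020 and 20, 23 and 6 in S2-028. It was lower in S2-020 than in S2-007 (log2 fold change -1.74, SE 0.530, adjusted p = 0.0119, or 0.0827 without S2-007 replicate 3). S2-028 and S2-007 overlapped (-1.13, SE 0.553, adjusted p = 0.134), and S2-028 and S2-020 overlapped (0.58, SE 0.697, adjusted p = 0.577).

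IL1A and IL1B, which encode the founding IL-1 cytokines, were near the limit of detection. IL1A had 6, 18 and 0 reads in S2-007, 18, 8 and 19 in S2-020 and 16, 30 and 11 in S2-028. All 3 lines overlapped, and none of the log2 fold changes was called (0.87, SE 0.926, adjusted p = 0.518 in S2-020 and 1.48, SE 0.891, adjusted p = 0.239 in S2-028 against S2-007). IL1B had at most 10 reads in a library, with 2, 4 and 2 in S2-007, 0, 4 and 10 in S2-020 and 10, 2 and 8 in S2-028, and a difference was not detectable at this depth.

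IL6 had 54, 20 and 43 reads in S2-007, 18, 27 and 9 in S2-020 and 19, 36 and 6 in S2-028. The lines overlapped, and the log2 fold changes of -1.19 (SE 0.539, adjusted p = 0.0919) in S2-020 and -0.69 (SE 0.580, adjusted p = 0.426) in S2-028 against S2-007 were not called. LIF, in contrast, was read deeply, with 4068, 3565 and 3818 reads in S2-007, 3275, 3731 and 3355 in S2-020 and 2543, 2820 and 2938 in S2-028. Its level of 51.4 ± 3.26, 45.7 ± 0.968 and 44.4 ± 3.61 CPM varied little. The log2 fold change of LIF was -0.20 (SE 0.0639, adjusted p = 0.0169) in S2-020 and -0.21 (SE 0.0761, adjusted p = 0.0407) in S2-028 against S2-007, which is under the fold threshold, and -0.04 (SE 0.0711, adjusted p = 0.718) in S2-028 against S2-020. The gene with the profile nearest to LIF over the 9 libraries, among 14042 genes, was C1orf35 (Euclidean distance 0.129 on centred log2 CPM, r = 0.934), with 32.4, 29.2 and 28.2 CPM in S2-007, in S2-020 and in S2-028. Opposite-strand genes cover 4.70% of the bases of IL6 and 4.37% of those of LIF.

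The 5 CXCL genes sit beside the ErbB ligand genes EPGN, EREG, AREG and BTC. Within 2 Mb of the cluster 61 other genes were listed. In S2-020 against S2-007, 3 of the 33 tested were higher and 5 lower, with a median log2 fold change of -0.19. Of all genes tested there, 9.57% were higher and 12.1% lower (median -0.05). In S2-028 against S2-007, 5 of 35 were higher and 4 lower (median -0.02), beside 10.2% and 8.19% of all genes (median 0.00). In S2-028 against S2-020, 7 of 34 were higher and 2 lower (median 0.07), beside 12.1% and 10.1% of all genes (median 0.02). AREG (amphiregulin) averaged 58.1, 24.8 and 214 CPM in S2-007, in S2-020 and in S2-028, with a log2 fold change of -1.26 in S2-020 and 1.88 in S2-028 against S2-007. EREG (epiregulin) averaged 256, 343 and 730 CPM and was higher in S2-028 than in S2-007 by 1.52, and BTC (betacellulin) averaged 3.37, 6.40 and 23.2 CPM and was higher by 0.89 in S2-020 and 2.79 in S2-028. EPGN (0.844, 0.752 and 0.770 CPM) was not called in any comparison. CXCL8 and CXCL1 were thus lower and these ErbB ligand genes other than EPGN higher in S2-028 than in S2-007, within the same stretch of chromosome 4. CXCL5 (0.43), CXCL3 (-1.13) and CXCL2 (-0.20) were not called there. RASSF6, named here after its values were seen, was among the 4 lower neighbors, with 21.3 CPM in S2-007 and 2.33 in S2-028 (-3.19).

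**Figure D3:**
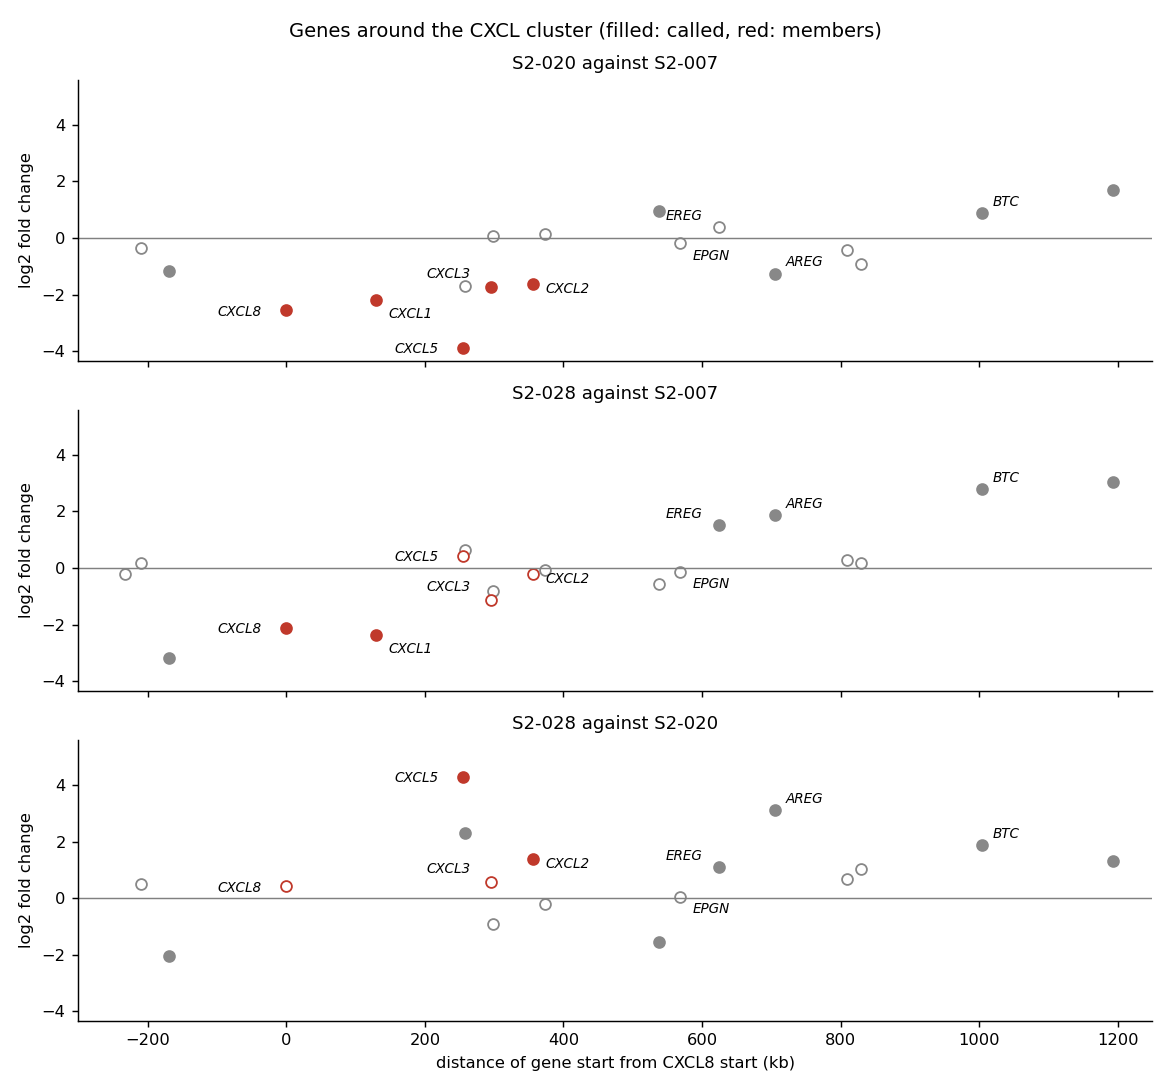
Log2 fold change of the genes tested near the CXCL cluster (the inner part of the 2 Mb window) against the distance of their start from that of CXCL8 (kb), in the 3 comparisons; red points are the CXCL genes, gray points other genes, and filled points were called. In S2-020 against S2-007 all 5 CXCL genes are below -1.63 or at it, and in S2-028 against S2-007 CXCL8 and CXCL1 are below -2 while EREG, AREG and BTC are above 1.5.

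Of 8 receptor genes 7 were tested, with 3 higher and 0 lower in S2-020 and 1 higher and 1 lower in S2-028 against S2-007, and 0 higher and 3 lower in S2-028 against S2-020. Of all genes tested, 9.57% were higher and 12.1% lower in S2-020 against S2-007. The shares were 10.2% and 8.19% in S2-028 against S2-007, and 12.1% and 10.1% in S2-028 against S2-020. They belong beside the counts of this list and of each list below, and no result about a list is read from its counts. CXCR2 was at 0.314 ± 0.0571, 0.213 ± 0.0691 and 0.123 ± 0.0233 CPM in S2-007, in S2-020 and in S2-028 and CCR6 at 1.39 ± 0.400, 1.63 ± 0.0603 and 1.47 ± 0.116 CPM, and neither was called in any comparison. CXCR1 was at most 0.0328 CPM and was not tested, nor was the chemokine decoy ACKR1.

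IL1R1, the signalling IL-1 receptor, was at 11.4 ± 1.33 CPM in S2-007, 12.9 ± 1.32 in S2-020 and 2.32 ± 0.251 in S2-028, where the libraries lay below all others. Its log2 fold change in S2-028 was -2.29 (SE 0.153, adjusted p = 9.26e-11) against S2-007 and -2.48 (SE 0.144, adjusted p = 3.43e-11) against S2-020. SIGIRR, a dampener of IL-1 receptor signalling, was higher in S2-028 (41.2 ± 1.64 CPM) than in S2-007 (19.9 ± 1.48 CPM, 1.05) and S2-020 (15.8 ± 1.52 CPM, 1.38). The receptor antagonist IL1RN was at 0.0537 ± 0.0534 CPM in S2-007 (8, 0 and 4 reads), 0.146 ± 0.0434 in S2-020 and 0.614 ± 0.350 in S2-028 (28, 24 and 62 reads). Its log2 fold change in S2-028 against S2-007 was 3.47 (adjusted p = 0.00154, and 2.90 to 4.42 when 1 library was left out). IL1RN passed the filter there only through S2-028, so a call could hardly be other than higher. The size of this fold is not well fixed. IL1RAP (11.9 to 16.6 CPM on average) stayed under the fold threshold in all 3 comparisons, and the decoy IL1R2 (0.0965 to 0.166 CPM) was not called where it was tested.

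Among the receptors of IL-6 and LIF, IL6R was highest in S2-020, with 44.5 ± 4.59 CPM against 11.5 ± 0.519 in S2-007 and 9.17 ± 1.08 in S2-028. The log2 fold change was 1.92 (SE 0.0839, adjusted p = 2.49e-13) in S2-020 against S2-007 and -2.28 (SE 0.101, adjusted p = 5.44e-13) in S2-028 against S2-020. LIFR was also highest in S2-020, with 4.44 ± 0.711, 13.6 ± 0.684 and 5.47 ± 0.657 CPM in S2-007, in S2-020 and in S2-028 and a log2 fold change of 1.58 (SE 0.129, adjusted p = 3.52e-09) in S2-020 against S2-007. IL6ST was higher in S2-020 (609 ± 9.66 CPM) and S2-028 (550 ± 20.0 CPM) than in S2-007 (269 ± 20.6 CPM), by 1.15 and 1.03. No library of S2-007 reached those of the other lines in IL6ST.

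**Figure D4:**
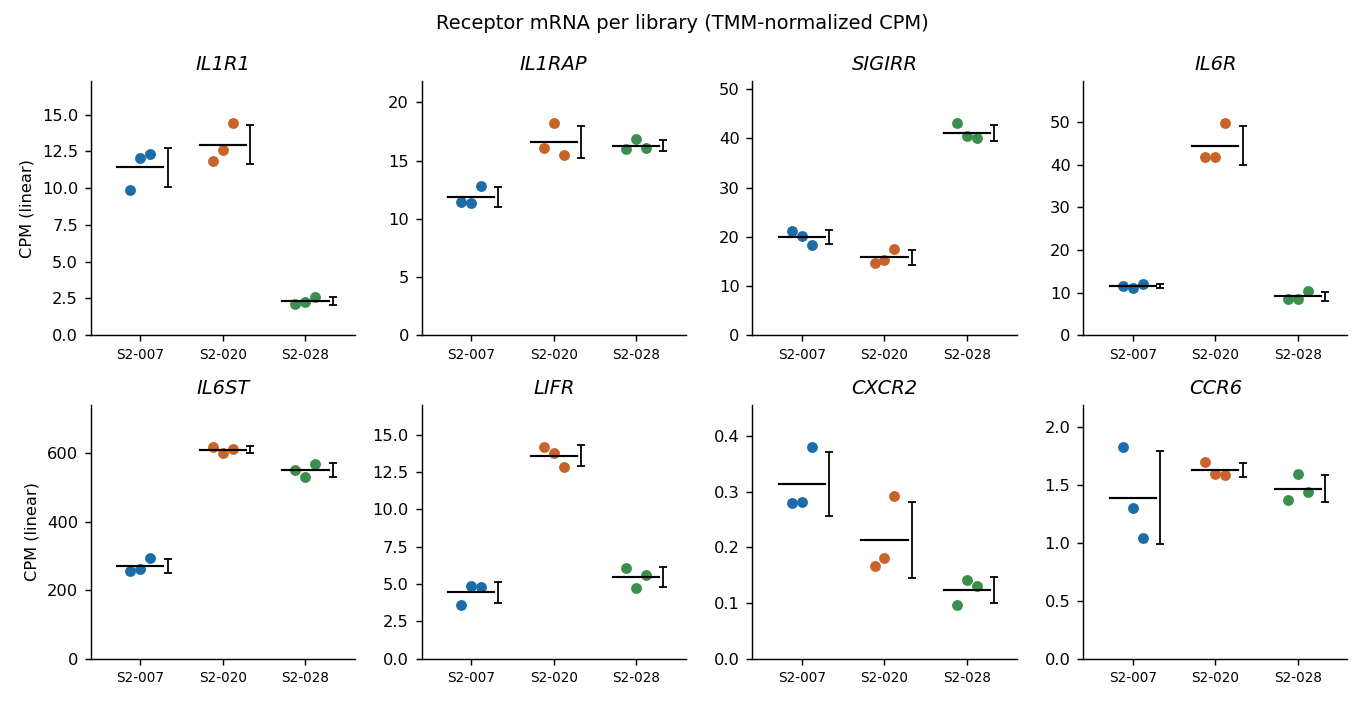
Receptor levels in CPM (linear axes from 0) in the 3 libraries of each line; points are libraries, the bar is the mean and the bracket 1 SD on either side. IL1R1 is lowest in S2-028 (2.32 CPM), IL6R and LIFR are highest in S2-020 (44.5 and 13.6 CPM), and IL6ST is lowest in S2-007 (269 CPM).

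Of 32 other chemokine genes, 8 were tested in each comparison. CXCL16, a membrane-bound chemokine, averaged 45.1, 4.96 and 33.9 CPM in S2-007, in S2-020 and in S2-028 and was lower in S2-020 than in S2-007 (log2 fold change -3.22, SE 0.0820, adjusted p = 5.89e-17). CXCL16 and CCL24 were the 2 genes lower in S2-020 against S2-007, CXCL16 and CCL28 the 2 higher in S2-028 against S2-020, and 0 were called in S2-028 against S2-007. Of 26 other cytokine genes, 17 or 18 were tested, with 2 higher and 3 lower in S2-020 and 5 higher and 3 lower in S2-028 against S2-007, and 6 higher and 1 lower in S2-028 against S2-020. IL18 was highest in S2-007 (92.1 CPM, against 44.1 in S2-020 and 29.8 in S2-028), and IL32 was highest in S2-020 (18.2 CPM, against 10.7 in S2-007 and 1.97 in S2-028). IL23A, a subunit of IL-23, was 3.18 CPM in S2-028 and 0.359 and 0.186 CPM in S2-007 and S2-020. CSF2, encoding GM-CSF, was 0.584 CPM in S2-007, 0.0519 in S2-020 and 0.703 in S2-028 (-3.46 in S2-020 against S2-007, SE 0.742, adjusted p = 0.000716). It had 30, 37 and 63 reads in S2-007 and 0, 6 and 6 in S2-020. CSF2 thus passed that filter only through S2-007, and the size of the fold is not well fixed.

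The genes that process IL-1, 9 of 10 tested, gave 1 higher and 4 lower in S2-020 and 1 higher and 2 lower in S2-028 against S2-007, and 2 higher and 1 lower in S2-028 against S2-020. Caspase-1 (CASP1), which cleaves pro-IL-1 beta, was between 0.774 and 1.43 CPM in S2-007 and averaged 5.41 in S2-020 and 1.29 in S2-028 (2.23 in S2-020 against S2-007). The inflammasome adaptor PYCARD was lower in S2-020 (-1.05) and higher in S2-028 (0.86) than in S2-007, and CASP4 was lower in both (-1.10 and -0.75).

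In the pathway from IL-1 and TNF receptors to NF-kB, 20 genes were tested, with 1 higher and 2 lower in S2-020 and 0 higher and 4 lower in S2-028 against S2-007, and 1 higher and 4 lower in S2-028 against S2-020. TLR4, the lipopolysaccharide receptor, was highest in S2-007, with 74.9 CPM against 39.5 in S2-020 and 30.8 in S2-028 (-0.95 and -1.28). The adaptor kinase gene IRAK2 was lower in S2-020 (-1.32), and IKBKB, the IKK beta gene, was lower in S2-028 (-1.09) than in S2-007. Among 14 NF-kB subunits and inhibitors, 2 were higher and 2 lower in S2-020 and 1 higher and 2 lower in S2-028 against S2-007, and 2 higher and 2 lower in S2-028 against S2-020. RELB was higher in both lines than in S2-007 (1.28 and 0.82), and BCL3 was lower in both (-0.76 and -1.57). NFKBIZ, a nuclear cofactor of NF-kB, was 27.5 CPM in S2-007, 11.8 in S2-020 and 22.8 in S2-028 (-1.26 in S2-020 against S2-007).

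Of 20 other known NF-kB target genes 19 were tested, and their directions were mixed, with 7 higher and 5 lower in S2-020 and 8 higher and 2 lower in S2-028 against S2-007, and 7 higher and 4 lower in S2-028 against S2-020. LCN2 (lipocalin-2) was 92.5, 0.241 and 34.9 CPM in S2-007, in S2-020 and in S2-028, lower in S2-020 (log2 fold change -8.57, adjusted p = 2.87e-18) and in S2-028 (-1.40) than in S2-007. Its S2-020 libraries held only 4 to 30 reads, so the size of the fold in S2-020 is not well fixed. VCAM1, an adhesion molecule, went the other way, with 0.216, 17.7 and 0.298 CPM (6.32 in S2-020 against S2-007). CFB (complement factor B) was lower in S2-020 (-1.87) and in S2-028 (-2.04), while PLAU (urokinase) was higher in S2-028 by 2.73 than in S2-007. The median log2 fold change of this list was 0.21, 0.07 and 0.47 in S2-020 against S2-007, S2-028 against S2-007 and S2-028 against S2-020, beside -1.74, -0.69 and 0.58 for the members tested of the chemokine and cytokine list. The medians of the members are partly set by the filter, as described above, so the medians of these lists are not directly comparable.

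Among 13 AP-1 and C/EBP factors, 5 were higher and 4 lower in S2-020 and 4 higher and 2 lower in S2-028 against S2-007, and 5 were higher and 5 lower in S2-028 against S2-020. JUN averaged 49.9, 320 and 138 CPM in S2-007, in S2-020 and in S2-028 (2.65 and 1.47 against S2-007), and FOSL1 796, 407 and 886 CPM (1.99-fold lower in S2-020 than in S2-007). Of 11 genes from gp130 to STAT3, 4 were higher and 2 lower in S2-020 and 2 higher and 1 lower in S2-028 against S2-007, and 1 higher and 3 lower in S2-028 against S2-020. SOCS1, a feedback inhibitor of JAK kinases, was 0.458 CPM in S2-007, 4.28 in S2-020 and 2.43 in S2-028 (3.19 and 2.41), while the STAT3 target PIM1 was lower in both lines (-1.73 and -1.19). SOCS3, of the same list, went the other way from PIM1, with 4.69, 13.3 and 10.8 CPM in S2-007, in S2-020 and in S2-028. Of 9 genes for decay of AU-rich transcripts, 1 was higher and 1 lower in S2-020 and 1 higher and 0 lower in S2-028 against S2-007, and 1 higher and 1 lower in S2-028 against S2-020. ZFP36, whose protein (tristetraprolin) promotes decay of such chemokine and cytokine transcripts, was 9.65 CPM in S2-007, 4.34 in S2-020 and 7.84 in S2-028 (-1.19 in S2-020 against S2-007).

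**Figure D5:**
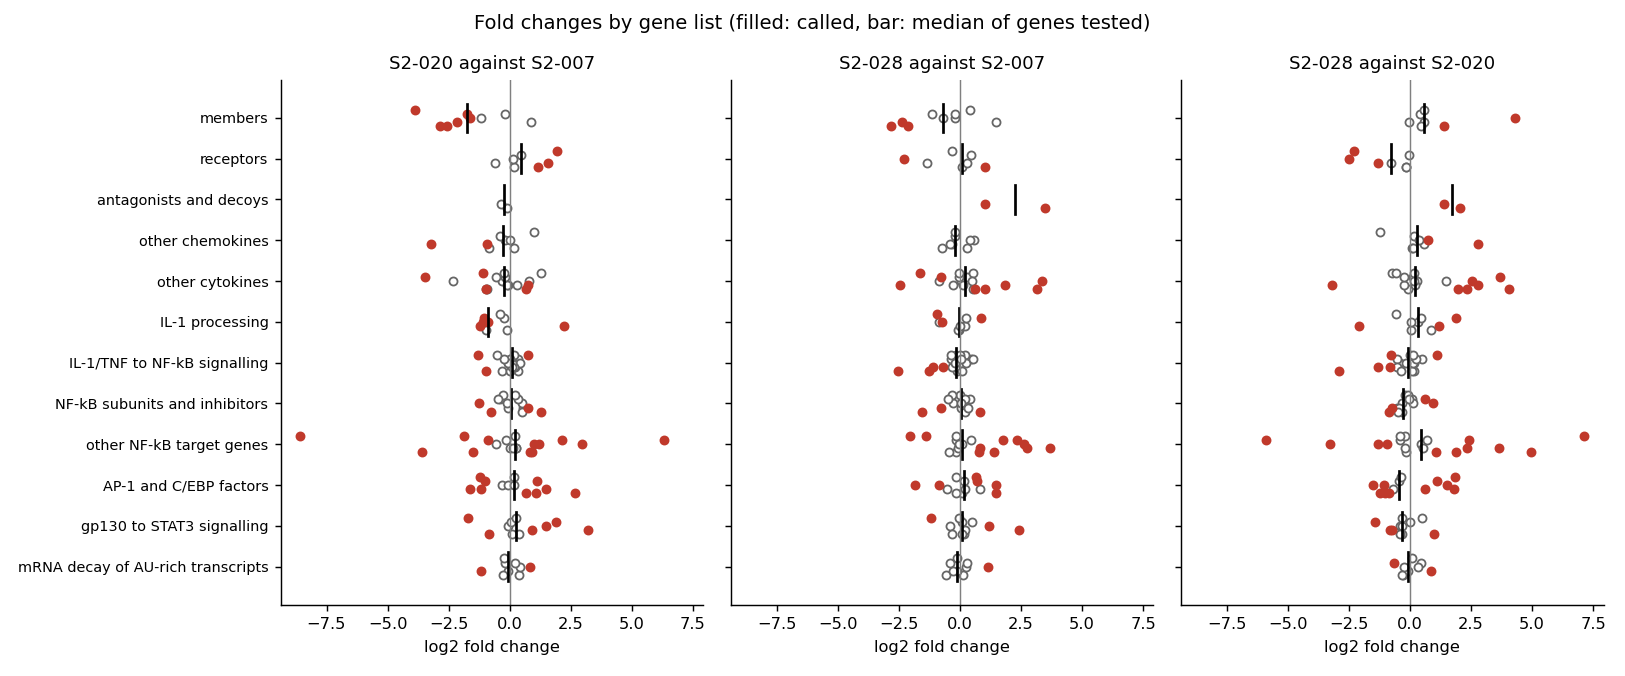
Log2 fold change of every tested gene of each list (rows) in the 3 comparisons; filled points were called and the black bar is the median of the genes tested. The median of the chemokines and cytokines (top row) is -1.74, -0.69 and 0.58, and the NF-kB target genes spread to both sides, from LCN2 at -8.57 to VCAM1 at 6.32 in S2-020 against S2-007.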

How the data were processed

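The authors deposited 1 table with the number of reads on each of 42717 genes in the 9 libraries, in whole counts that were not normalized. Its 2 lines that name no gene were left out, as were 18 columns in which the authors deposited scaled signal. According to the submitters' processing notes, Trimmomatic 0.39, BWA 0.7.17, SAMtools 1.12 and edgeR 3.16.5 were used with the genome GRCh38.p14. The libraries were strand-specific. The counting tool, the use of strand and the treatment of reads with several matches are not given in the sources used here. BWA is not splice-aware, and loss of reads that span exons may weigh on short multi-exon genes such as these. Of counts from 2 to 10, between 82.8% and 84.2% per library were even, including 21 of the 22 such values of the members, as counting both reads of a pair would give, and 1 fragment then adds 2 reads. The floor of 3 reads would in that case be a floor of 3 fragments. Counting error and this floor cover counting alone, since PCR copies were not marked.

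Each library took its line and number from its own label. The fits were run with edgeR 4.0.16 in R 4.3.3, with only the 6 libraries compared in each fit. Genes were kept by filterByExpr (minimum count 10, minimum total 15), normalized by TMM and tested with the quasi-likelihood test, with the thresholds given in the text. The SE was computed from the fold change and the F statistic, so it is not a direct measure of the spread of log2 levels between libraries. The printed CPM use TMM factors of all 9 libraries and the fold changes a prior count that edgeR adds, so their ratios differ slightly. No pair of libraries was alike within sampling noise (chi-square per gene of 7.91 or more). On simulated counts of 25637 genes for S2-028 against S2-007, 54.0% of genes changed by 1 and 81.1% of those changed by 2 on the log2 scale were recovered, with 6 unchanged genes called. Transcript lengths, shared sequence and exon overlaps come from GENCODE release 44 MANE Select transcripts, and positions and promoters from RefSeq (99.6% of the gene identifiers matched).

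The members and gene lists were chosen with earlier results of these data known. The genes named are all members, their receptors and antagonists, the ErbB ligand genes near the cluster, at most 4 called genes of each other list with the smallest adjusted p in a comparison, at most 2 genes of a marker list, and the gene with the nearest profile for members whose mean log2 CPM reached 1. The alternatives tried were RLE factors, library size alone, no filter, DESeq2 1.42.0, the likelihood ratio test, a 1.5-fold change as the null, all 9 libraries in one fit, a replicate block and leaving out each library. Counts halved to read pairs were added after seeing the data.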

Additional observations from a re-analysis of the deposited data

How the results depend on the processing

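With a 1.5-fold change as the null, the DEGs fell to 2977 in S2-028 against S2-007, 3639 in S2-020 against S2-007 and 3638 in S2-028 against S2-020, and the members called to 3 in S2-020 against S2-007 and 1 in S2-028 against S2-020. Without a filter on low counts, 1 member was called in S2-028 against S2-020. Leaving out 1 library gave 3 to 6 members called in S2-020 against S2-007, with 3 without S2-007 replicate 3, and 1 to 2 in S2-028 against S2-020, with 2 only without S2-028 replicate 1. The same numbers in different lines did not pair the libraries, since the correlation of same-numbered libraries was between -0.0219 and 0.0140 over 9 pairs. A replicate block gave 4865, 5650 and 5716 DEGs and 3, 6 and 1 members called in S2-028 against S2-007, S2-020 against S2-007 and S2-028 against S2-020. The member lost each time in S2-028 against S2-020 was CXCL2 (adjusted p = 0.0514 with no filter, 0.0597 with the block and 0.202 against the 1.5-fold null). Over the members' fold changes and all alternatives, 324 kept direction and call, 18 lost the call, 1 gained it (IL6 in S2-020 against S2-007 without S2-007 replicate 2, adjusted p = 0.0417) and 3 that were not called changed sign without 1 library (CXCL2 in S2-028 against S2-007, LIF and IL6 in S2-028 against S2-020), while no called one reversed. The calls of CXCL5 and CXCL8 did not depend on any library left out. With 1 Mb instead of 2 Mb around the cluster, the median of the neighbors was -0.26, 0.05 and 0.51 in S2-020 against S2-007, S2-028 against S2-007 and S2-028 against S2-020. Depth limits CXCL1, CXCL2, CXCL3, CCL20, IL1A, IL1B and IL6, which had 60 reads or fewer in every library. The causes of these changes were not tested.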
